A study of Mus musculus with 6 samples.

Results

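The structural proteins of the extracellular matrix were followed through ribosome profiling of ID8 cells by taking 45 named genes out of the 53465 gene rows of the deposited table. They were chosen by symbol through GENCODE M21, and all 45 had a row. The list covers fibrillar, network and other collagens, laminin chains, the proteins that link basement membranes, fibronectin and elastic fibre proteins, matricellular proteins and proteoglycans. ID8 cells are an ovarian cancer model that arose from surface epithelium of the mouse ovary. There were 3 libraries labelled KO, made from cells given a guide RNA against Nat10, and 3 labelled WT, made from cells given a control guide. NAT10 is the acetyltransferase that places acetyl groups on cytidines of RNA, and the study asked how its depletion changes translation. All cells received cycloheximide at 100 µg/mL for 2 minutes. No clone, culture or passage is named for either group, and every p-value given here therefore reflects library-to-library spread that may be technical.

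Matrix proteins are made on ribosomes at the endoplasmic reticulum and secreted. Collagens are built from chains wound into a triple helix, which requires a glycine at regular short intervals. A trimer of unlike chains forms only where those chains are made in the same cell. Laminins are trimers of an alpha, a beta and a gamma chain, and together with collagen IV, nidogens and perlecan they make up the basement membrane on which epithelial and mesothelial cells sit. A ribosome footprint count reflects both the amount of an mRNA and the density of ribosomes on it. No matched RNA-seq was used here, so those contributions cannot be told apart, nor can fewer cells making a protein from less of it per cell.

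The glycine repeat is visible in the coding sequence that the footprints come from, and 1 exon each of the chains that the results below turn on is shown for that reason. Bases are those of the GENCODE M21 transcripts on GRCm38, 5′ to 3′ on the coding strand, with the glycine codon that opens each repeat in capitals. The exons are coding exon 8 of Col1a1 (chr11:94939904-94939957, plus strand), coding exon 15 of Col6a1 (chr10:76717795-76717857, minus strand), coding exon 3 of Col4a1 (chr8:11247006-11247095, minus strand) and coding exon 9 of Col4a2 (chr8:11403342-11403404, plus strand).
Col1a1: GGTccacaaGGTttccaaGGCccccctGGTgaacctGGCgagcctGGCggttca
Col6a1: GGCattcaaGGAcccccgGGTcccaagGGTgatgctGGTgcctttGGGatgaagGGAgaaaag
Col4a1: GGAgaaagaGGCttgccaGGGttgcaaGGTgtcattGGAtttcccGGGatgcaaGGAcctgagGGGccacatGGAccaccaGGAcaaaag
Col4a2: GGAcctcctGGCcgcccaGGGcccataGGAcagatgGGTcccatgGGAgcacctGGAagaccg
These exons hold 6, 7, 10 and 7 repeats, each a glycine codon followed by 2 codons, and the last repeat of Col1a1 holds a further glycine codon, left in lower case. Over their longest annotated coding sequences the 17 collagen genes had 9.17% to 28.6% glycine codons (median 24.6%), against 4.44% to 10.8% in the 28 other matrix genes (median 8.06%) and a median of 6.15% over 8071 tested genes with a coding sequence.

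Secreted proteins begin with a signal sequence whose hydrophobic core is often rich in leucine, and leucine codons were frequent, though not in all members, at the start of the matrix genes. The first 25 codons of the members described most closely below are shown with leucine codons in capitals. They lie at chr11:5862152-5862226 for Aebp1 (plus strand), chr1:170644922-170644996 for Olfml2b (plus strand), chr1:71652908-71652982 for Fn1 (minus strand), chrX:73490790-73490864 for Bgn (plus strand) and chr10:97483363-97483437 for Dcn (plus strand).
Aebp1: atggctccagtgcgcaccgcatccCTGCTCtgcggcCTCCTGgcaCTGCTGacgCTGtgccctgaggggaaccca
Olfml2b: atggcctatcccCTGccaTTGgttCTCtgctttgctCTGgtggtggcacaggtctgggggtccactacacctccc
Fn1: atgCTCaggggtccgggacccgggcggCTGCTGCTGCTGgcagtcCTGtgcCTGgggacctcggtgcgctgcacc
Bgn: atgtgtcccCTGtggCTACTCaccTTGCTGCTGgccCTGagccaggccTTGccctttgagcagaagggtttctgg
Dcn: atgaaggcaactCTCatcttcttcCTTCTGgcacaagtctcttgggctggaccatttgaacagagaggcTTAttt
These starts held 7, 4, 7, 8 and 4 leucine codons. Of the 45 matrix genes 27 had at least 6 among their first 25 codons (60%), against 687 of 8071 tested genes (8.51%).

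Library totals ran from 2234305 to 3126208 counts in KO and from 1687466 to 2148715 counts in WT. The number of genes per count had a local peak well above single reads, at counts of 42, 46 and 60 in KO libraries and of 15, 21 and 39 in WT libraries. This modal count is used below as a yardstick for how many independent fragments a count may stand for. Nat10 itself had counts of 315, 133 and 445 in KO and 168, 128 and 292 in WT, with a log2 fold change of -0.07 (SE 0.48, edgeR quasi-likelihood adjusted p = 1.0), so its level does not check the labels and directions below refer to the libraries labelled KO. The epithelial and mesothelial markers Krt19, Msln, Upk1b, Upk3b and Wt1 were counted in every library, while Krt7, Epcam, Cdh1 and Lrrn4 were at 0 in all KO libraries and at 0 to 6, 0, 0 to 50 and 0 to 12 counts in WT. Krt8 had 1, 74 and 251 counts in KO and 413, 346 and 293 in WT (edgeR adjusted p = 0.51). The mesothelial transcription factor gene Bnc1 had 45, 54 and 156 counts in KO and 0 in each WT library (edgeR adjusted p = 0.42). Those KO counts of Bnc1 correspond to only 1.07, 1.17 and 2.6 modal counts. Markers of fibroblasts summed to 5 to 14 counts in KO libraries and 0 to 8 in WT libraries, those of endothelium to 0 to 8 in KO and 0 to 12 in WT, and those of leukocytes to 0 to 5 in KO and 0 to 29 in WT. Among them the fibroblast genes Thy1, Fap and Dpp4, the endothelial gene Cldn5 and the leukocyte genes Itgam and Cd3e were at 0 in all libraries. Others were counted, such as the fibroblast gene Pdgfra, with 14, 5 and 1 counts in KO and 8, 0 and 0 in WT. The leukocyte gene Cd68 had 0 counts in KO and 10, 29 and 0 in WT. The endothelial gene Tek had 0, 0 and 1 counts in KO and 0, 12 and 0 in WT.

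Matrix genes made up a larger share of all counts in the libraries labelled KO. Their 45 counts summed to 1.01%, 0.97% and 1.1% of the total in the KO libraries, and to 0.707%, 0.676% and 0.657% in the WT libraries. Every KO library lay above every WT library. Hspg2 alone supplied 20.1% to 28.2% of the matrix counts in KO and 23.7% to 26.4% in WT. Of the 45 genes 24 passed the filter on low counts, 17 had enough counts or a small enough p to be described one by one, and 21 were too scarce to test.

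Of the 24 tested matrix genes 2 rose in the KO libraries, Aebp1 and Olfml2b, and 0 fell by edgeR's quasi-likelihood test, in which the groups are compared over all 8200 tested genes and called at an adjusted p under 0.05. Over all tested genes 0.402% were called, 0.183% higher and 0.22% lower. Fold changes were positive in 16 and negative in 8 of the 24, with a median of 0.21 on the log2 scale, against -0.02 over all tested genes. Every KO library lay above every WT library for 9 of the 24, beside 6.94% of all tested genes, and below for 2 of the 24, beside 7.93%. Some members passed the filter through 1 group alone, such as Col6a1, so these counts describe the tested members and not the whole list.

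Aebp1 encodes a secreted protein, also known as aortic carboxypeptidase-like protein, that binds collagen. It had 638, 665 and 685 CPM (the count scaled to a common library size with TMM factors) in KO, against 288, 302 and 321 CPM in WT. Every KO library lay far above the highest WT library, and the spread within each group was narrow. The means were 663 ± 23.8 CPM in KO and 304 ± 16.4 CPM in WT (SD, n = 3 each), a log2 fold change of 1.13 (SE 0.21, 95% interval 0.69 to 1.56, edgeR adjusted p = 0.026). The gene lies on the plus strand of chromosome 11 (5861947 to 5872088 in GRCm38).

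Olfml2b encodes a secreted olfactomedin-domain glycoprotein that binds proteoglycan chains. It had 672, 776 and 697 CPM in KO, against 369, 330 and 301 CPM in WT. The groups were again well apart. Its log2 fold change was 1.10 (SE 0.21, 95% interval 0.66 to 1.54, edgeR adjusted p = 0.028), and the gene lies on the plus strand of chromosome 1 (170644532 to 170682789). Both calls depended on having all libraries, with 1 exception. Aebp1 was called in 0 of the 6 fits that left out 1 library, with adjusted p = 0.088 without KO replicate 1, 0.084 without KO replicate 2, 0.11 without KO replicate 3, 0.082 without WT replicate 1, 0.20 without WT replicate 2 and 0.11 without WT replicate 3. Olfml2b was called without WT replicate 1 (adjusted p = 0.047), and had adjusted p = 0.088, 0.11 and 0.10 without KO replicates 1, 2 and 3, 0.21 without WT replicate 2 and 0.17 without WT replicate 3. The sizes moved little, between 1.09 and 1.16 for Aebp1 and between 1.03 and 1.18 for Olfml2b.

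**Figure D1:**
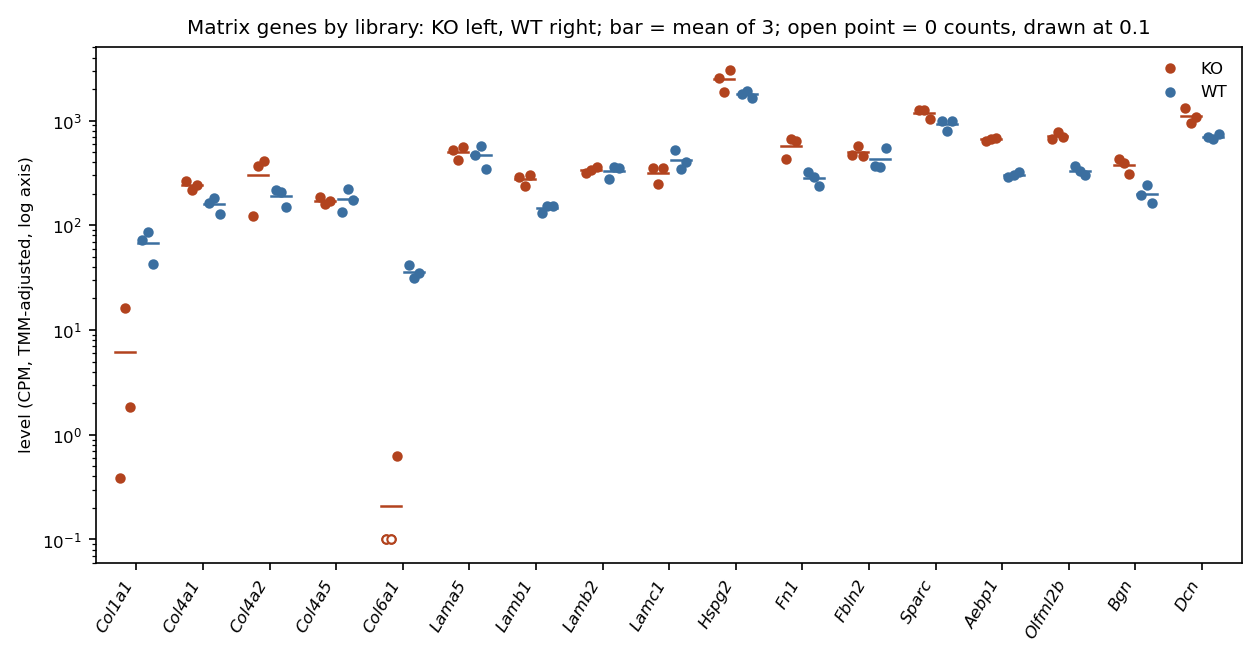
Level of 17 matrix genes in each library in CPM on a log axis; points are libraries, short lines are means of 3, and open points mark 0 counts drawn at 0.1. Aebp1 and Olfml2b have tight, separate groups, whereas the KO points of Col1a1 and Col6a1 lie far below their WT points.

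The other abundant matricellular protein, Sparc, a secreted collagen-binding glycoprotein, had 1250, 1260 and 1040 CPM in KO, against 987, 799 and 997 CPM in WT. The lowest KO library was just above the highest WT library. The log2 fold change was 0.35 (SE 0.18, edgeR adjusted p = 0.86), which did not pass the test. Thbs2, Postn and Tgfbi, secreted proteins common in stromal matrix, had at most 2 counts in any library. Tnc, the hexameric glycoprotein tenascin C, had 53 counts in KO replicate 3 and 0 in the others.

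Among the proteoglycans, Bgn and Dcn encode the small leucine-rich proteoglycans biglycan and decorin, which bind collagen fibrils and TGF-β. Bgn had 434, 391 and 308 CPM in KO, against 193, 244 and 162 CPM in WT. Dcn had 1320, 949 and 1080 CPM in KO, against 697, 666 and 737 CPM in WT. In neither gene did the groups overlap. The log2 fold changes were 0.92 for Bgn (SE 0.27, edgeR adjusted p = 0.30) and 0.67 for Dcn (SE 0.19, edgeR adjusted p = 0.25), so neither passed over all genes. Vcan, the large proteoglycan versican, had 119, 123 and 190 counts in KO and 21, 62 and 0 in WT, again without overlap after scaling, but it averaged only 2.17 modal counts and its edgeR adjusted p was 1.0. Lum, lumican, a further small leucine-rich proteoglycan, had 3 counts in KO replicate 3 and 0 elsewhere.

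Fn1, fibronectin, which links collagen and integrins on the cell surface, had 425, 665 and 644 CPM in KO, against 321, 292 and 237 CPM in WT. The groups did not overlap, with KO replicate 1 nearest to WT. Its log2 fold change was 1.03 (SE 0.25, 95% interval 0.50 to 1.55, edgeR adjusted p = 0.11), close in size to those of Aebp1 and Olfml2b but with a wider spread in KO. Fbln2, the elastic fibre and basement membrane protein fibulin 2, had 464, 566 and 460 CPM in KO, against 365, 360 and 552 CPM in WT, and the groups overlapped (log2 fold change 0.22, SE 0.24). Efemp2, fibulin 4, needed for elastic fibre assembly, had 147, 85 and 94 counts in KO and 81, 70 and 40 in WT, and after scaling the groups overlapped. Fbn1, the microfibril protein fibrillin 1, had 74 counts in KO replicate 3, 21 in WT replicate 3 and 0 elsewhere, and Fbln1, fibulin 1, had a single count in KO replicate 3.

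**Figure D2:**
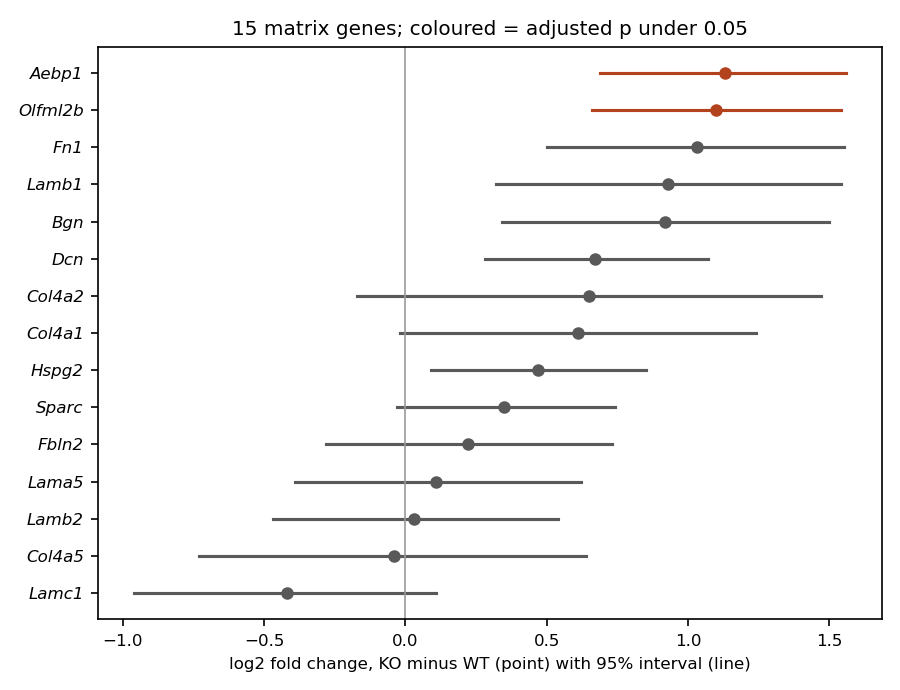
Log2 fold change, KO minus WT, of 15 matrix genes with its 95% interval, ordered by size; coloured genes have an adjusted p under 0.05. The intervals of Aebp1, Olfml2b, Fn1, Lamb1, Bgn, Dcn and Hspg2 lie above 0, and only Aebp1 and Olfml2b pass over all genes. Col1a1 and Col6a1, with few KO counts, are not drawn. Their intervals lie below 0 (-5.98 to -0.9 and -11.78 to -2.27), and neither passes over all genes.

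Basement membrane genes supplied many of the matrix counts, though not the highest levels per coding length. Hspg2 encodes perlecan, the heparan sulphate proteoglycan of basement membranes, and had the highest CPM of the list, with 2540, 1870 and 3010 CPM in KO against 1810, 1920 and 1630 CPM in WT. KO replicate 2 lay within the WT range. The log2 fold change was 0.47 (SE 0.18, edgeR adjusted p = 0.55). Agrn, agrin, another heparan sulphate proteoglycan, had 120, 46 and 187 counts in KO and 36, 55 and 109 in WT, overlapping between groups after scaling. The nidogens, which bridge laminin and collagen IV, were nearly absent, with 1 count of Nid1 in KO replicate 3 and none of Nid2.

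Laminin footprints came mainly from Lama5, Lamb1, Lamb2 and Lamc1. Lama5, the alpha 5 chain, had 526, 423 and 562 CPM in KO, against 472, 577 and 348 CPM in WT, and the groups overlapped. Lamc1, the gamma 1 chain, had 349, 247 and 351 CPM in KO, against 522, 345 and 406 CPM in WT, also overlapping. Their log2 fold changes were 0.11 (SE 0.24, 95% interval -0.39 to 0.62) for Lama5, whose sign turned to -0.06 without WT replicate 3, and -0.42 (SE 0.25, 95% interval -0.96 to 0.11) for Lamc1.

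The beta chains differed from each other in their values. Lamb1, the beta 1 chain, had 289, 235 and 305 CPM in KO, against 130, 152 and 154 CPM in WT, without overlap. Lamb2, the beta 2 chain, had 314, 336 and 363 CPM in KO, against 277, 357 and 356 CPM in WT, with overlap. The log2 fold changes were 0.93 (SE 0.29, 95% interval 0.32 to 1.54, edgeR adjusted p = 0.36) for Lamb1 and 0.03 (SE 0.24, 95% interval -0.47 to 0.54) for Lamb2, whose sign turned to -0.03 without KO replicate 3 and -0.08 without WT replicate 1. Per coding length Lamb1 stood at 0.903, 0.687 and 0.825 of Lamb2 in the KO libraries and at 0.458, 0.417 and 0.424 in the WT libraries. That ratio averaged 0.805 ± 0.109 in KO and 0.433 ± 0.0219 in WT (SD, n = 3 each), and no test was made of it because the pair was chosen after its values were seen.

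The remaining laminin chains were scarce. Lama3 and Lamb3, an alpha and a beta chain found in laminin of epithelial anchoring complexes, had 0 counts in all 6 libraries. A count of 0 allows up to 3 counts, or 0.921 to 1.27 CPM in the KO libraries and 1.48 to 1.8 CPM in the WT libraries, for counting error only. This takes each count as an independent fragment. The limit would be higher if 1 fragment stood for as many counts as the modal count. Lama1, the alpha 1 chain of embryonic basement membrane, had 1, 0 and 76 counts in KO and 0 in each WT library. Lama4, the alpha 4 chain common in vessels, had 0, 0 and 3 counts in KO and 0, 40 and 0 in WT.

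**Figure D3:**
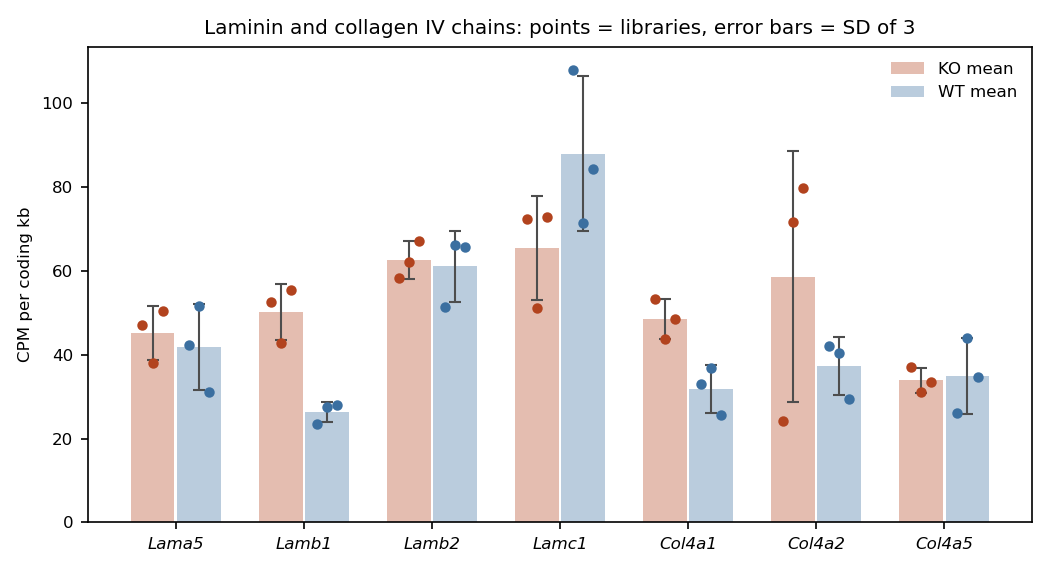
Level per coding kilobase (CPM per kb) of laminin and collagen IV chains; points are libraries, bars are means of 3 starting at 0, and error bars are SD. Lamb1 is higher in all KO libraries than in any WT library, the groups of Lamb2 overlap, and Col4a2 has a wide spread in KO.

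Collagen IV, the network collagen of basement membranes, had the most footprints of the collagens listed. Col4a1, which supplies most chains of its commonest trimer, had 267, 219 and 243 CPM in KO, against 165, 184 and 128 CPM in WT, without overlap. Col4a2, its partner in that trimer, had 124, 367 and 408 CPM in KO, against 215, 207 and 151 CPM in WT, and KO replicate 1 lay below every WT library. The log2 fold changes were 0.61 (SE 0.29, edgeR adjusted p = 0.81) and 0.65 (SE 0.38, edgeR adjusted p = 0.98); that of Col4a2 ran from 0.36 without KO replicate 3 to 1.03 without KO replicate 1 when single libraries were left out.

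These chains are encoded head to head on chromosome 8, Col4a1 on the minus strand (11198423 to 11312826) and Col4a2 on the plus strand (11312805 to 11449287), so that their annotated 5′ ends overlap by 22 bases. Their 300-base promoter windows in RefSeq's annotation of GRCm38 share 78 bases. Per coding length the ratio of Col4a1 to Col4a2 was 2.19, 0.61 and 0.609 in the KO libraries and 0.786, 0.909 and 0.87 in the WT libraries. KO replicate 1 therefore stood apart from the other 5 libraries in this ratio. Col4a2 had 7.6 modal counts there and 6.69 in WT replicate 3, and what scarce fragments contribute to the ratio was not tested.

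Col4a5, the X-linked alpha 5 chain of collagen IV, had 188, 158 and 171 CPM in KO, against 133, 224 and 176 CPM in WT, with overlap and a log2 fold change of -0.04 (SE 0.32, 95% interval -0.73 to 0.64). The sign turned to 0.02 without KO replicate 2 and 0.16 without WT replicate 2. Its known partner chain Col4a6 was also translated, with 244, 352 and 523 counts in KO and 242, 163 and 240 in WT. The alternative partners Col4a3 and Col4a4 had 0 counts in KO, and in WT only Col4a4 was counted, with 20, 20 and 0. The network collagen Col8a1, found in vessels and in the eye, had at most 2 counts in any library. The same held for Col18a1, a basement membrane collagen that also carries heparan sulphate.

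Fibrillar collagens, the rope-like collagens of connective tissue, were scarce in both groups, and Col1a1 was scarcer in KO. Col1a1 had 1, 38 and 6 counts in KO, against 120, 171 and 74 in WT. In CPM this was 6.17 ± 8.77 in KO and 67.1 ± 21.9 in WT (SD, n = 3 each), without overlap. None of the KO counts reached the modal count, and the size of the difference is poorly fixed (log2 fold change -3.44, SE 1.19, 95% interval -5.98 to -0.90, edgeR adjusted p = 0.48). It was -5.78 without KO replicate 2 (edgeR adjusted p = 0.079), which held most of the KO counts, and -2.89 without KO replicate 1. Col1a2, the partner chain in the usual collagen I trimer, had 6 counts in KO replicate 3 and 0 elsewhere. Col3a1 had 88 counts in KO replicate 3 alone, Col5a3 had none, and Col5a1 and Col5a2, whose chains help start fibrils, had 0 to 48 counts in KO and 1 to 69 in WT with overlapping groups.

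Among the other collagens Col6a1, a chain of beaded-filament collagen VI, had 0, 0 and 2 counts in KO, against 69, 63 and 60 in WT. The groups were far apart, and a KO over WT ratio of 0.00689 (exact 95% interval 0.000829 to 0.0252) follows from 2 against 192 counts with counting error alone. Over the spread between libraries the edgeR adjusted p was 0.41. The WT counts correspond to only 4.6, 3.0 and 1.54 modal counts, so few independent fragments may lie behind them. Its partner chains Col6a2 and Col6a3 had at most 3 counts in any library, all in KO replicate 3. Col12a1 and Col16a1, collagens that sit on the surface of fibrils, had 1 to 182 and 2 to 76 counts in KO and 0 to 122 and 10 to 40 in WT, overlapping, and Col7a1, the collagen of anchoring fibrils, had none.

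Single libraries mattered most among the scarce genes. Of the 21 untested matrix genes, 5 had 0 counts in all 6 libraries (Col5a3, Col7a1, Lama3, Lamb3 and Nid2) and 11 had counts in KO replicate 3 alone. That library had the highest total of counts, but its total divided by its modal count was 52103, within the 46442 to 112498 of the other libraries. It held 12 of the 45 matrix genes at 1 to 3 counts, against 4 and 2 in KO replicates 1 and 2 and 0 to 2 in the WT libraries. Over all genes it also had the most at 1 to 3 counts, 1434 against 744 to 955 in the other libraries. Its counts of Col3a1, Lama1, Fbn1 and Tnc, between 53 and 88, are each close to its modal count of 60.

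**Figure D4:**
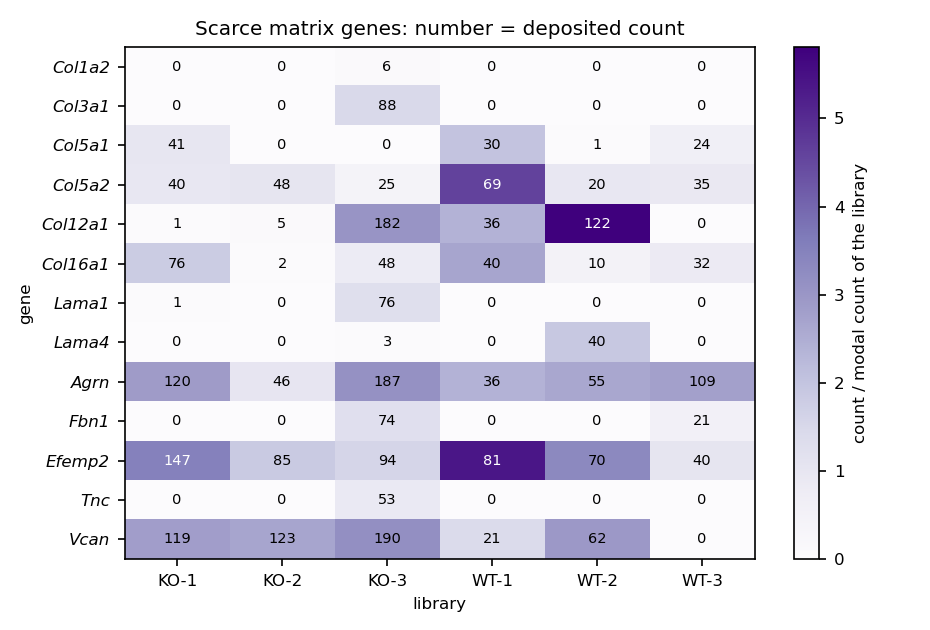
Deposited counts (numbers) of matrix genes not described by CPM that had over 3 counts in some library, shaded by count divided by the modal count of the library. Most cells are at or near 0, and Col3a1, Lama1, Fbn1 and Tnc are filled mainly in KO replicate 3.

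Levels can be compared between genes only per coding length. The order given here is that of the 17 genes described one by one. On that scale Sparc led with 1190 ± 128 CPM per kb in KO and 929 ± 111 in WT, followed by Dcn with 1050 ± 176 and 657 ± 33.4 (SD, n = 3 each). Sparc and Dcn overlapped within their spread in KO and not in WT. Bgn came next, at 340 ± 57.7 CPM per kb in KO and 180 ± 37.5 in WT, overlapping within 1 SD with Olfml2b at 319 ± 24.1 in KO and 149 ± 15.2 in WT. Hspg2, Aebp1 and Fbln2 followed with means of 136 to 196 CPM per kb in KO and 89.7 to 136 in WT. The laminin chains, Fn1 and the collagen IV chains lay between 33.9 and 77.7 CPM per kb in KO and between 26.4 and 88.0 in WT, with neighbours mostly not separated beyond their SD. Col1a1 and Col6a1 were the lowest of these 17. They had 1.42 ± 2.01 and 0.0672 ± 0.116 CPM per kb in KO and 15.4 ± 5.03 and 11.7 ± 1.74 in WT. Of the matrix genes outside the 17, Efemp2 was higher than both in WT, at 25.8 ± 9.42 CPM per kb. The others were lower than both in WT, such as Agrn at 6.14 ± 3.65.

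Of 80 other core matrix genes 15 were tested and 0 called by edgeR, 10 with positive fold changes and a median of 0.30. Igfbp7, a secreted growth factor binding protein of the matrix, had 1330 ± 269 CPM in KO and 725 ± 50.3 CPM in WT (log2 fold change 0.88, SE 0.19, edgeR adjusted p = 0.066). Tinagl1, a basement membrane protein that binds laminin and integrins, had 401 ± 50.6 CPM in KO and 229 ± 47.4 CPM in WT (0.81, SE 0.26). Ltbp1, which stores latent TGF-β in the matrix, and Ccn2, a matricellular protein, stood at 1.02 (SE 0.29) and 1.0 (SE 0.29). These 4 genes, taken for their small p, had every KO library above every WT library. Of the 15 tested, 5 had that order and 2 the opposite one, beside 6.94% and 7.93% of all tested genes.

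Of 34 genes that modify, process or crosslink collagen 27 were tested, 0 called higher and 1 lower, with 17 positive fold changes and a median of 0.30. Over all 8200 tested genes 0.183% were called higher, 0.22% lower, and 4021 fold changes were positive, with a median of -0.02. The gene that fell was Tgm2, a transglutaminase that crosslinks fibronectin and other matrix proteins, with 0, 8 and 5 counts in KO against 426, 498 and 420 in WT (edgeR adjusted p = 0.00021), a call kept in all 6 fits that left out 1 library. The lysyl oxidases Lox and Loxl1, which crosslink collagen and elastin, had 297 ± 57.1 and 190 ± 65.5 CPM in KO, against 98.4 ± 45.3 and 52.6 ± 39.6 CPM in WT, and did not pass (edgeR adjusted p = 0.11 and 0.25). Their relative Loxl3 had 42, 50 and 80 counts in KO, near the modal counts, and 0 in each WT library. It passed the count filter through KO alone and was not called (edgeR adjusted p = 0.54).

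Of 29 matrix receptors 14 were tested and 0 called (0.402% of all tested genes), 10 with positive fold changes and a median of 0.24 (-0.02 over all tested genes). Cd44, the hyaluronan receptor, had 641 ± 50.2 CPM in KO and 332 ± 8.72 CPM in WT (log2 fold change 0.95, SE 0.21, edgeR adjusted p = 0.066). The integrins Itga3, a laminin receptor, and Itgav, a receptor for fibronectin and vitronectin, stood at 0.27 (SE 0.16) and 0.39 (SE 0.25), and Itga6, another laminin receptor, at -0.54 (SE 0.38), none passing. Among the epithelial and mesothelial markers Krt19 and Krt18, keratins of simple epithelia, fell (-0.92, SE 0.13, and -1.74, SE 0.31) and the mesothelial surface protein Msln rose (1.05, SE 0.18), with edgeR adjusted p = 0.0044, 0.020 and 0.015. Some of these calls were lost in fits that left out 1 library. Krt19 had adjusted p = 0.068 and 0.075 without WT replicates 2 and 3. Krt18 kept its call in 1 of those 6 fits, without WT replicate 1 (0.034), and had adjusted p = 0.088, 0.056 and 0.068 without KO replicates 1, 2 and 3 and 0.22 and 0.085 without WT replicates 2 and 3. With all libraries it also missed the threshold under the filter of at least 50 counts in 3 libraries (edgeR adjusted p = 0.052). Msln lost its call without KO replicates 1 and 2 (0.088 and 0.063) and WT replicates 2 and 3 (0.11 and 0.11). The part of these marker differences in the matrix results was not tested.

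**Figure D5:**
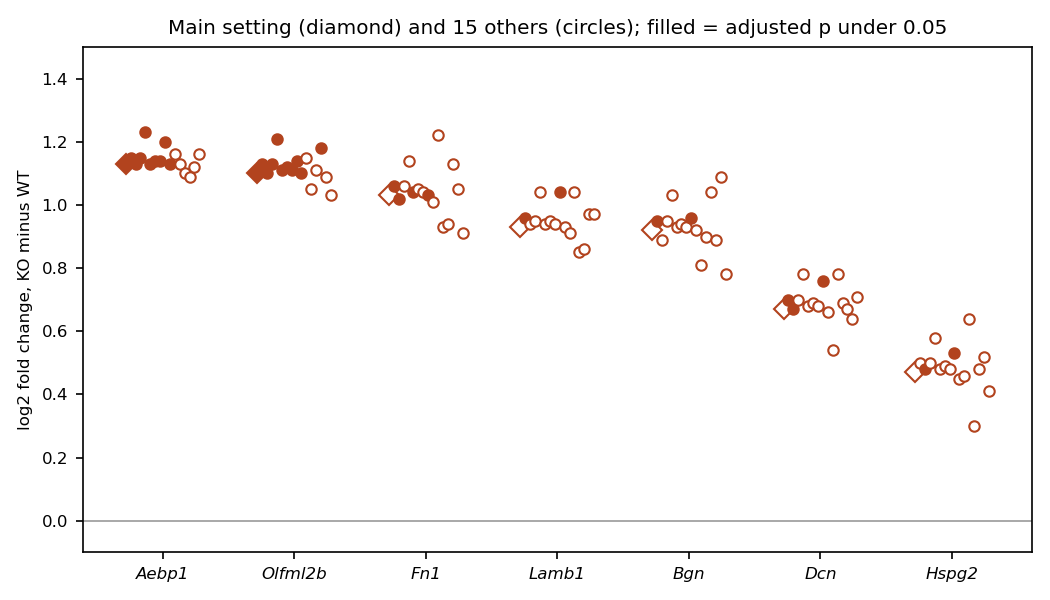
Log2 fold change, KO minus WT, of 7 matrix genes under the main setting (diamonds) and 15 other settings (circles); filled symbols have an adjusted p under 0.05. All values are above 0, and filled symbols are most frequent for Aebp1 and Olfml2b.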

How the data were processed

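The labels' protocols give adapter trimming, a length window of 25 to 34 nt, removal of rRNA and tRNA reads by Bowtie, and alignment of what remained by HISAT2 (genome, GRCm38) and Bowtie (transcripts). Per the submitters' processing notes, cutadapt, featureCounts and DESeq2 were also used. The sources used here do not give the annotation, strand setting, multi-mapping or duplicate handling behind the counts. The authors deposited whole-number counts per Ensembl gene, not normalized; 53360 of 53465 identifiers matched GENCODE M21, the rest having at most 12 counts in a library.

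The main test was edgeR 4.0.16 (R 4.3.3, quasi-likelihood, robust, TMM, filterByExpr by group), Benjamini-Hochberg over 8200 genes, called under 0.05; fold changes are KO minus WT. DESeq2 1.42.0, limma-voom 3.58.1 and the other settings in the closing section were alternatives. Modal counts are the highest interior peak of each library's smoothed histogram (bandwidth 3, counts 8 to 150). Coding length is the longest annotated coding sequence. On simulated counts for this comparison (8200 genes, 200 of at least 100 CPM changed, 5 simulations), 11.6% of 2-fold, 69.9% of 4-fold and 92.1% of 8-fold changes were recovered. Of the calls made there 4.94% were false. The simulated counts came from a negative binomial model that does not build in the modal peak, so these rates may not carry over. Annotated genes overlapping the 17 described had 0 counts, apart from the Col4a1 and Col4a2 pair.

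Matrix genes given with levels and a fold change had an unadjusted p under 0.05 or at least 100 CPM on average, or at least 300 CPM and a sign that turned when 1 library was left out; other matrix genes are given by counts, and other lists gave called genes and up to 4 tested genes of smallest p. The members, lists and tests were chosen with earlier results of these data known. Intervals and floors on counts cover counting error only, since no molecular identifiers are described.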

Additional observations from a re-analysis of the deposited data

How the results depend on the processing

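The number of matrix genes called higher in KO, 2 in the main setting, was 6 with DESeq2 (Aebp1, Olfml2b, Bgn, Dcn, Fn1 and Lamb1), 5 with limma-voom (Hspg2 in place of Bgn and Lamb1) and 7 on counts divided by the modal count (the 6 of DESeq2 and Hspg2, of only 968 genes tested), 3 without a count filter (with Fn1), and lay between 0 and 1 when single libraries were left out. The number called lower, 0 in the main setting, was 2 with DESeq2, Col1a1 (adjusted p = 0.029) and Col6a1 (adjusted p = 0.0016), and 0 in the 14 other settings. Neither Col1a1 nor Col6a1 was tested on counts divided by the modal count, so the 0 there does not bear on them. Aebp1 was called in 9 of 15 other settings and Olfml2b in 10, the 9 without a left-out library included; the lost calls come from fits with fewer libraries. Signs turned for Col4a5 with library totals (0.07), without KO replicate 2 (0.02) and without WT replicate 2 (0.16, single-library range -0.22 to 0.16), for Lama5 without WT replicate 3 (-0.06, range -0.06 to 0.30), for Lamb2 without KO replicate 3 (-0.03) and WT replicate 1 (-0.08, range -0.08 to 0.09), and for Nat10 with limma-voom (0.02), library totals (0.03), without KO replicate 2 (0.23) and WT replicate 3 (0.35, range -0.35 to 0.35); the cause was not tested. No other gene given with a fold change turned sign. Library totals moved the median of all genes by 0.11 and limma-voom by -0.12.

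Deviations of same-numbered KO and WT libraries from their group means had r = -0.01701, -0.002583 and -0.006601 over genes. Most genes were scarce and noisy, so these values cannot decide whether same-numbered libraries were prepared together. With the replicate number as a block 2 matrix genes were called higher (Aebp1 and Olfml2b) and 0 lower. Over all genes the 33 calls of 8200 tested became 235 of 9278 with DESeq2, 93 of 8200 with limma-voom, 91 of 12794 without a count filter, 110 of 968 tested on counts divided by the modal count and 6 to 29 without single libraries. Among the other lists, Igfbp7, Ccn2, Lox, Loxl1 and Cd44 passed with DESeq2, with limma-voom and without a count filter (adjusted p = 0.0075, 0.046, 0.0019, 0.0071 and 0.031 for the last), Igfbp7 and Cd44 also with library totals (0.03 each), Lox with the block (0.038) and Loxl1 without WT replicate 1 (0.034). DESeq2 also called Ltbp1, Tinagl1, Loxl3 and Upk1b, and limma-voom Ltbp1 (0.046). On counts divided by the modal count Igfbp7, Ccn2, Lox, Cd44, Ltbp1, Tinagl1 and Upk1b were called. Col6a1 and Vcan averaged under 3 modal counts; what depth contributes to their values was not tested.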
